A study of Mus musculus with 10 samples.

Results

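The genes for the TGF-beta superfamily ligands were examined for binding by Polycomb proteins and for their histone mark. The list held 33 of the 22342 protein-coding genes placed on chromosomes 1 to 19 and X by the GENCODE annotation of mouse genome build mm9. The 33 were chosen by name, with earlier results of these data known, and all were found once by symbol. The other 22309 genes served as background. A gene was counted for a peak list when a start site of at least 1 of its protein-coding transcripts lay inside a peak or within 1 kb of one. By family there were 10 BMP genes, 11 GDF genes, 5 inhibin genes, 3 Nodal and Lefty genes, 3 TGF-beta genes and Amh. Bmp1 carries the family name but encodes a secreted metalloprotease that trims procollagen, and not a ligand of this fold.

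The study mapped Polycomb proteins by ChIP-seq, the sequencing of DNA recovered with an antibody from crosslinked chromatin, in untreated mouse J1 embryonic stem cells (ESCs), grown with serum and leukemia inhibitory factor on feeder cells that were depleted before ChIP, and in neural stem cells (NSCs) differentiated from J1 ESCs in culture. Ring1b, Cbx2, Ezh2 and H3K27me3 were measured in ESCs and Ring1b and H3K27me3 in NSCs, with 1 library per cell type and target, 10 min of crosslinking in 1% formaldehyde and fragments of about 250 bp. By the study's methods, chromatin for Ring1b was also treated with the crosslinker EGS, so the Ring1b lists differ from the others in preparation as well as in target. The 6 deposited lists hold peak positions alone, without a measure of height, so the depth behind each peak is unknown and a gene without a peak is one where enrichment did not reach the level set by the authors.

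The lists held between 1033 peaks (ESC Cbx2) and 2335 peaks (ESC Ring1b), with no peak narrower than 1000 bp. The NSC lists were shorter than the ESC lists of the same target, at 1389 against 2335 peaks for Ring1b and 1647 against 2192 for H3K27me3. No RNA was analysed here, so the cell type labels could not be checked against expressed markers. Peaks at marker genes did not follow the labels throughout. Of 6 ESC markers, Pou5f1, Nanog, Zfp42 and Dppa5a had no peak at a start in any list, but Esrrb had ESC Ring1b, Ezh2 and H3K27me3 peaks of 2600, 1800 and 2800 bp and an NSC H3K27me3 peak, and Fgf4 had an NSC H3K27me3 peak. Of 6 NSC markers, Nes, Pax6 and Olig2 had Ring1b, Ezh2 and H3K27me3 peaks in ESCs and none in NSCs, Sox2 had H3K27me3 in both cell types (1200 and 1800 bp), and Slc1a3 and Fabp7 had no peak. Of 6 neuron and mesoderm markers, Gata4 and Gata6 were in all 6 lists, T in 5 and Myod1 in 2, and Tubb3 and Neurod1 had no peak.

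Polycomb repressive complex 2 contains the methyltransferase Ezh2, which places the H3K27me3 mark. Polycomb repressive complex 1 contains the ubiquitin ligase Ring1b and, in some forms, a Cbx subunit such as Cbx2, whose chromodomain can bind that mark. These complexes hold many developmental genes in a repressed state in ESCs, most often at promoters rich in CpG dinucleotides. The ligands are secreted dimers that bring together type I and type II receptor kinases, which then phosphorylate Smad proteins. They pattern the early embryo, and in neural tissue BMP signals shape dorsal identity and the choice between neuronal and glial fates.

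The promoters below show the base composition of some ligand genes with and without Ring1b peaks. Each run is the 250 bases directly upstream of the most upstream start site in mm9, read 5′ to 3′ on the strand of the gene, with every CpG in capitals. Bmp2 (chr2:133377645-133377894, + strand), Gdf6 (chr4:9771269-9771518, + strand), Gdf7 (chr12:8308761-8309010, - strand), Inhbb (chr1:121318826-121319075, - strand) and Tgfb1 (chr7:26471771-26472020, + strand) had the widest ESC Ring1b peaks of their families, Gdf6 and Gdf7 with equal widths and Tgfb1 with the only one of its family. Bmp5 (chr9:75622921-75623170, + strand) and Inhba (chr13:16103434-16103683, + strand) are the first members of their families with no peak in any list. Gdf11 (chr10:128328775-128329024, - strand) also had no peak and was added after its values were seen, because its start is CpG-rich. The counts of CpG in these runs were 33 for Bmp2, 19 for Gdf6, 20 for Gdf7, 21 for Inhbb, 21 for Tgfb1, 4 for Bmp5, 3 for Inhba and 33 for Gdf11. Over the other genes the median was 9, with quartiles of 3 and 18, and over all 33 ligand genes the median was 5. The ligand genes with ESC Ring1b that are not shown varied widely. Inha had 2, Bmp3 4, Bmp4 11, Bmp6 11 and Bmp8b 16, and Bmp1 had 24, Bmp7 27 and Gdf10 35.
Bmp2: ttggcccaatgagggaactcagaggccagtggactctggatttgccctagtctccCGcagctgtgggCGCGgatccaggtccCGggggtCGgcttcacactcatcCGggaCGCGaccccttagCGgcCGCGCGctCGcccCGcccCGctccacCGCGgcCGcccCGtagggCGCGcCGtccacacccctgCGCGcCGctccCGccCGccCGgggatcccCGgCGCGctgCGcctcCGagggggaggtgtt
Gdf6: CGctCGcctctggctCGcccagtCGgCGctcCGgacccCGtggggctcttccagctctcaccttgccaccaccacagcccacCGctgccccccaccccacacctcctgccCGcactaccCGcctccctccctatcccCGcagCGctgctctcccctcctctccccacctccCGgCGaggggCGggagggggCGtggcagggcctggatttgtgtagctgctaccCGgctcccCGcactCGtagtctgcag
Gdf7: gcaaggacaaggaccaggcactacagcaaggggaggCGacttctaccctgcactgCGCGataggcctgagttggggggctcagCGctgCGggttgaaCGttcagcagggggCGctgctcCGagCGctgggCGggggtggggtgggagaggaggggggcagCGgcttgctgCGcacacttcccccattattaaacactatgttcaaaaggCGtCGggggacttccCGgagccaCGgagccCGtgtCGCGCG
Inhbb: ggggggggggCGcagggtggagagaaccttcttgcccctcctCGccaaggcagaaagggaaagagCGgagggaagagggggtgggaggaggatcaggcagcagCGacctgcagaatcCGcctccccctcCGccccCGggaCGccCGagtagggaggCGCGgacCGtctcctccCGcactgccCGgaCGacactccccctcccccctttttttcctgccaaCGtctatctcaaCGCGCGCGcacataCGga
Tgfb1: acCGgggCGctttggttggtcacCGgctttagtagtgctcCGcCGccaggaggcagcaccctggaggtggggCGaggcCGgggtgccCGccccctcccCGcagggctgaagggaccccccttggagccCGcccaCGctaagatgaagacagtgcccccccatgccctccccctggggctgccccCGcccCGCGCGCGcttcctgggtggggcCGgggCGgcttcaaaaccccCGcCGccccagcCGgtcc
Bmp5: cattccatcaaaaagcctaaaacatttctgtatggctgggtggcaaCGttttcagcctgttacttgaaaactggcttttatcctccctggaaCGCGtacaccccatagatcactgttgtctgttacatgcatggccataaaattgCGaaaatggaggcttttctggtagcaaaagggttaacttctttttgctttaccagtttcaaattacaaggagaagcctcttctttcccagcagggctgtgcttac
Inhba: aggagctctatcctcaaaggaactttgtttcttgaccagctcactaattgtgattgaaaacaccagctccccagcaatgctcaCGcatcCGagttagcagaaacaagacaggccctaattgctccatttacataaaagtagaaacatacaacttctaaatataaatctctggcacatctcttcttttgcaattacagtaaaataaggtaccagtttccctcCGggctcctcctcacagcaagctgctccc
Gdf11: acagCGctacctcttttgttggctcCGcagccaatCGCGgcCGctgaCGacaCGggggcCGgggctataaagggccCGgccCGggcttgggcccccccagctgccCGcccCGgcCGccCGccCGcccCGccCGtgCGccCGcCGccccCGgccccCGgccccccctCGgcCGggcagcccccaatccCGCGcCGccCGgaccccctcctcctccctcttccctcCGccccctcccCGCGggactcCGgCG

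In ESCs a Ring1b peak lay at the starts of 13 of the 33 ligand genes (39.4%, exact 95% interval 22.9 to 57.9%), against 8.56% of the other genes. H3K27me3 marked 12 ligand genes (36.4%, 20.4 to 54.9%) against 6.78%, and Ezh2 was at 8 (24.2%, 11.1 to 42.3%) against 3.78%. Cbx2 was at 3 (9.09%, 1.92 to 24.3%) against 1.72%. For Ring1b, Ezh2 and H3K27me3 the background share lay below the lower end of the ligand genes' interval. For Cbx2, with 3 genes, it did so narrowly, and it did not when the start had to lie inside a peak (2 genes, lower end 0.743%, background 1.31%), within 5 kb (3 genes, 1.92%, 2.05%) or with peaks of at least 2 kb (1 gene, 0.0767%, 1.20%). These are Clopper-Pearson intervals that cover counting error only, and no test was made, because genes of 1 library are not replicates. The members were chosen with earlier results of these data known, and the intervals do not cover that choice.

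In NSCs a Ring1b peak lay at 1 ligand gene (3.03%, 0.0767 to 15.8%), a share near the background of 2.59%. H3K27me3 marked 4 (12.1%, 3.40 to 28.2%) against 2.76%, but 2 when the start had to lie inside a peak, where the lower end of 0.743% was below the background of 2.03%. A peak of at least 1 of the 6 lists was at 15 ligand genes (45.5%, 28.1 to 63.6%) against 11.4% of the other genes, which left 18 with no peak. Without Bmp1 the counts of 32 were 12 for ESC Ring1b, 3 for Cbx2, 7 for Ezh2, 11 for ESC H3K27me3, 1 for NSC Ring1b and 4 for NSC H3K27me3.

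**Figure D1:**
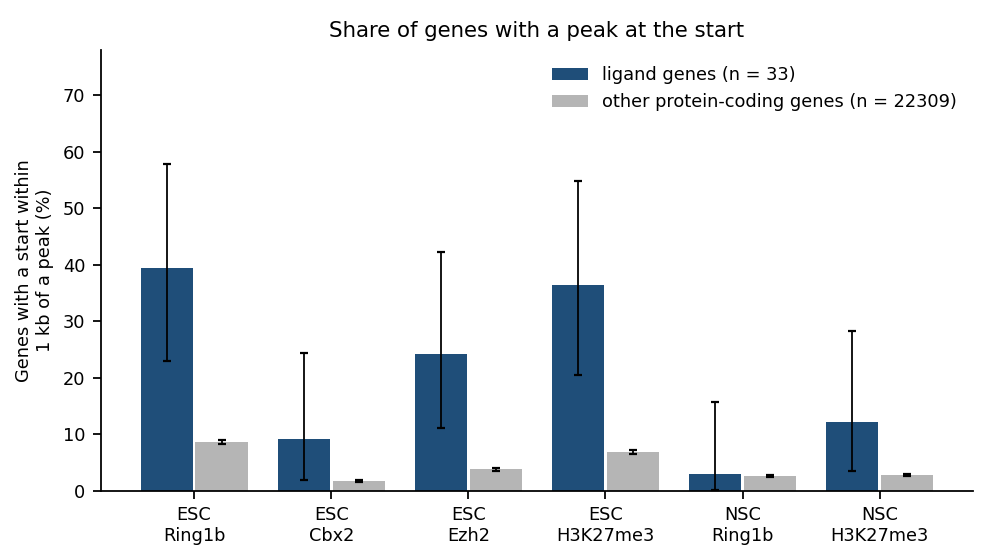
Share of genes (%) with a start within 1 kb of a peak, for each of the 6 lists, in the 33 ligand genes and the 22309 other protein-coding genes. Error bars are exact 95% intervals for counting error and do not cover the choice of members, made with earlier results of these data known. The ligand share is above the background in the ESC Ring1b and H3K27me3 lists (39.4% and 36.4%). It is close to the background in the NSC Ring1b list (3.03% against 2.59%).

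Among the 13 ligand genes with ESC Ring1b, 10 also had H3K27me3 (76.9%, 46.2 to 95%), where the share over other Ring1b genes was 61%. Ezh2 was at 8 of the 13 (61.5%, 31.6 to 86.1%) against 42.1%, and Cbx2 at 3 (23.1%, 5.04 to 53.8%) against 18.9%. The background lay inside each of these intervals. Without Bmp1 the counts of 12 were 9 for H3K27me3, 7 for Ezh2 and 3 for Cbx2. Peaks of all 4 ESC lists met at the starts of 2 ligand genes, Bmp7 and Gdf6 (6.06%, 0.743 to 20.2%), against 1.43% of the other genes. The ESC Ring1b and Ezh2 lists met without H3K27me3 at Bmp3, while Ring1b was alone at Bmp4 and Inha and H3K27me3 alone at Bmp8a and Tgfb2.

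**Figure D2:**
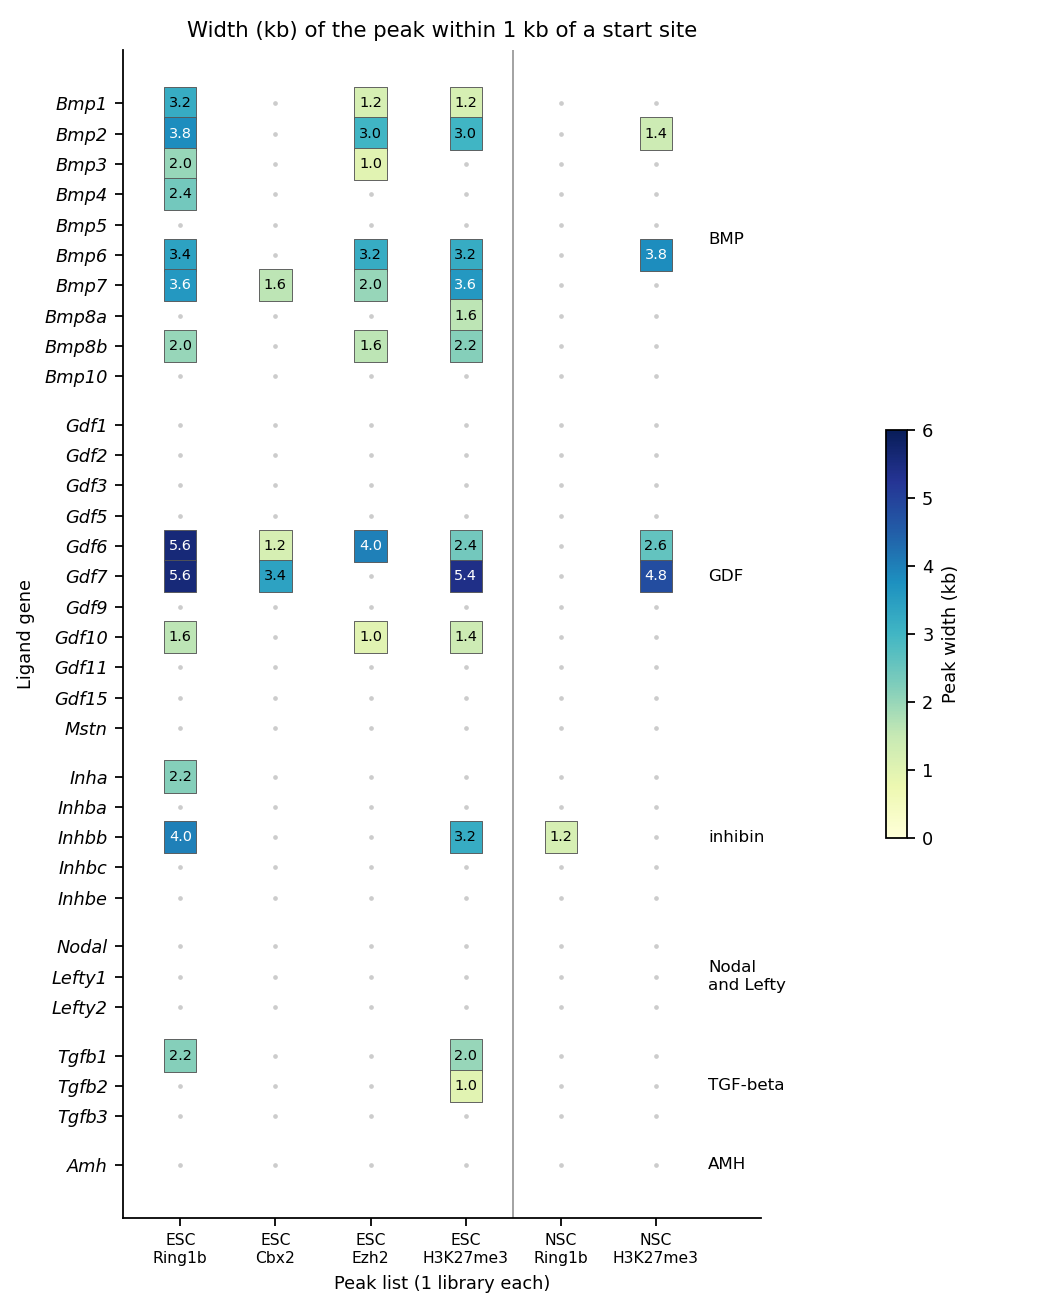
Width in kb of the peak at the start of each of the 33 ligand genes (rows, by family) in each of the 6 lists (columns, 1 library each); a dot marks no peak within 1 kb. Most squares are in the BMP rows and at Gdf6 and Gdf7, and the rows of Nodal, Lefty1 and Lefty2 are empty.

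The BMP genes held 22 of the 41 peak calls over the 6 lists, and 19 of 38 without Bmp1. A gene was counted once here for each list with a peak at its start. In ESCs 7 of the 10 had Ring1b (70%, 34.8 to 93.3%), against 8.56% of the other genes. Ezh2 and H3K27me3 were each at 6 (60%, 26.2 to 87.8%), against 3.78% and 6.78%. Cbx2 was at 1 (10%, 0.253 to 44.5%) against 1.72%. A peak of at least 1 list was at 8 (80%, 44.4 to 97.5%) against 11.4%. In NSCs none had Ring1b, against 2.59%, and 2 had H3K27me3 (20%, 2.52 to 55.6%), against 2.76%. The background lay inside the intervals for Cbx2 and for both NSC lists. Of the 9 BMP genes other than Bmp1, 6 had ESC Ring1b, 5 Ezh2, 5 H3K27me3 and 7 a peak of any list. Bmp2 (ENSMUSG00000027358.6, chromosome 2, 133377895 to 133388621, 3 exon blocks), which acts in heart and bone formation, had ESC peaks of 3800 bp for Ring1b, 3000 bp for Ezh2 and 3000 bp for H3K27me3 over its start and an NSC H3K27me3 peak of 1400 bp. Bmp6 (chromosome 13, 38436995 to 38592183), whose product drives hepcidin expression in iron balance, had ESC peaks of 3400 bp for Ring1b and 3200 bp for both Ezh2 and H3K27me3 and an NSC H3K27me3 peak of 3800 bp. The NSC mark was thus narrower than the ESC mark at Bmp2 and wider at Bmp6.

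Bmp7 (chromosome 2, 172693513 to 172765822), a ligand needed for kidney and eye development, was the BMP gene with all 4 ESC targets and had no NSC peak. Its peaks were 3600 bp wide for Ring1b, 1600 bp for Cbx2, 2000 bp for Ezh2 and 3600 bp for H3K27me3. The Ring1b, Cbx2 and Ezh2 peaks covered the start, and the H3K27me3 peak, from 172762001 to 172765600, lay within the gene, 222 bp downstream of the start. Of the 4 Bmp7 peaks only H3K27me3 thus stopped short of the start site.

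Bmp8b (chromosome 4, 122782408 to 122809342), a germ cell and thermogenic ligand, had ESC peaks of 2000 bp for Ring1b, 1600 bp for Ezh2 and 2200 bp for H3K27me3. Its close paralogue Bmp8a (chromosome 4, 122989888 to 123020495) had an ESC H3K27me3 peak of 1600 bp and no other. All 969 of the 32-base words in the 1 kb around either start occur once in mm9, so the sequence at each start is distinct at that word length. Further peaks inside both genes lay at the starts of other genes, Oxct2a in Bmp8a and Oxct2b and Gm17244 in Bmp8b, and were not counted.

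Bmp1 (chromosome 14, 70874364 to 70920067) had ESC peaks of 3200 bp for Ring1b, 1200 bp for Ezh2 and 1200 bp for H3K27me3. The Ezh2 peak ended at 70920000 and the H3K27me3 peak began at 70920401, so these 2 peaks did not overlap and both lay under the Ring1b peak, which ended at 70921800. Bmp3 (chromosome 5, 99283458 to 99309979), which opposes other BMPs in bone, had 2000 bp of Ring1b and 1000 bp of Ezh2. Bmp4 (chromosome 14, 47003195 to 47010344), a mesoderm inducer that is also used to sustain mouse ESCs, had a Ring1b peak of 2400 bp, from 47007801 to 47010200, and no other. Bmp5 and Bmp10 had no peak at a start, and their nearest peaks of any list were 356 and 301 kb away.

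Of the 11 GDF genes, 3 had a peak at a start (27.3%, 6.02 to 61.0%), against 11.4% of the other genes: Gdf6, Gdf7 and Gdf10. All 3 had ESC Ring1b and H3K27me3, against 8.56% and 6.78%. Cbx2, Ezh2 and NSC H3K27me3 were at 2 each (18.2%, 2.28 to 51.8%), against 1.72%, 3.78% and 2.76%. Apart from Cbx2, each background share lay inside the interval. The intervals for ESC Ring1b overlapped between the BMP and GDF genes. Gdf6 (ENSMUSG00000051279.2, chromosome 4, 9771519 to 9789492, 2 exon blocks), which acts in joint, eye and skull development, was the ligand gene in the most lists, 5 of 6. Its ESC peaks were 5600 bp wide for Ring1b, 1200 bp for Cbx2, 4000 bp for Ezh2 and 2400 bp for H3K27me3, and the NSC H3K27me3 peak was 2600 bp wide. An NSC Ring1b peak of 1000 bp lay 2482 bp downstream of the start, inside the span of the ESC Ring1b peak, and fell outside the 1 kb limit. A further pair of ESC peaks, 2000 bp of Ring1b and 1400 bp of H3K27me3, lay in the gene about 14 kb from the start and touched 1 exon block.

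Gdf7 (chromosome 12, 8304740 to 8308760, 2 exon blocks), a roof plate signal for dorsal spinal interneurons, was covered nearly end to end. The ESC Ring1b peak of 5600 bp and the ESC H3K27me3 peak of 5400 bp each spanned 100% of the gene. The ESC Cbx2 peak of 3400 bp held 84.6% of it and the NSC H3K27me3 peak of 4800 bp held 91.0%. An ESC Ezh2 peak of 3200 bp lay over the downstream part of the gene, 1960 bp from the start and so beyond the limit. In NSCs an additional H3K27me3 peak of 1200 bp stood 8041 bp upstream. The gene is 4021 bp long.

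Gdf10 (chromosome 14, 34736773 to 34749700), a relative of Bmp3, had narrow ESC peaks of 1600 bp for Ring1b, 1000 bp for Ezh2 and 1400 bp for H3K27me3. The other 8 GDF genes had no peak at a start in any list. They include Gdf3, a Nodal-related ligand of pluripotent cells, Gdf5, a joint-forming ligand of the same subfamily as Gdf6 and Gdf7, Gdf9 of the oocyte, Gdf11 of axial patterning, the stress-induced Gdf15 and Mstn, the inhibitor of muscle growth. Gdf1, a partner of Nodal in left-right patterning, and the vascular ligand Gdf2 complete the group. The nearest peak of any list to these starts ranged from 16.4 kb (Gdf2, to the Ring1b peak at Gdf10) to 668 kb (Gdf5).

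**Figure D3:**
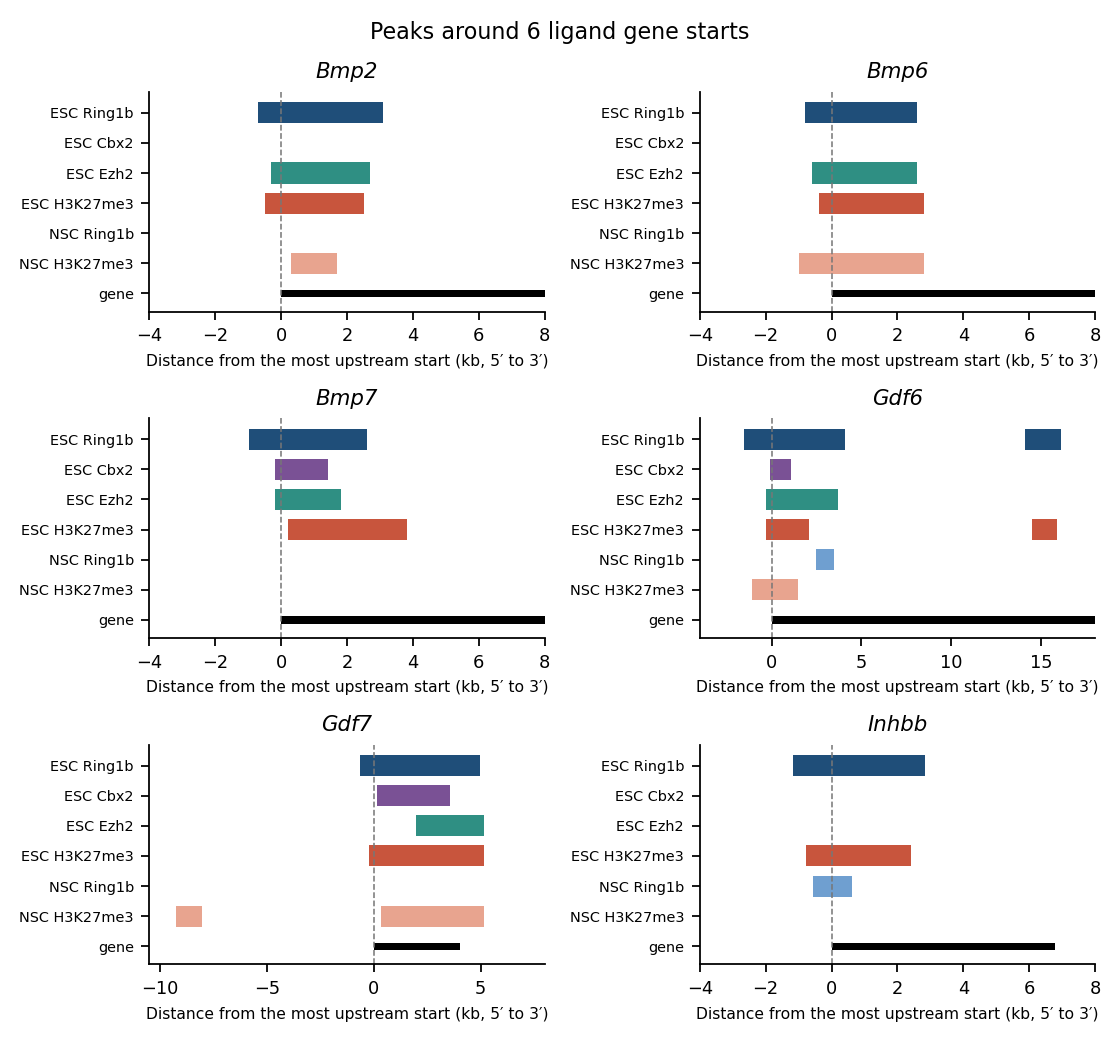
Peaks of each list (coloured bars) around the most upstream start of Bmp2, Bmp6, Bmp7, Gdf6, Gdf7 and Inhbb, with the gene body in black and distance in kb read 5′ to 3′; the axes of Gdf6 and Gdf7 are longer than the others. The Gdf7 gene body lies within its ESC Ring1b and H3K27me3 peaks, Gdf6 has a second pair of ESC peaks about 14 kb downstream, and Inhbb has an NSC Ring1b peak and no NSC H3K27me3 peak.

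Of the 5 inhibin genes, which encode the subunits of activins and inhibins, Inhbb and Inha had peaks (40%, 5.27 to 85.3%). The share over the other genes, 11.4%, lay inside that interval. Inhbb (ENSMUSG00000037035.5, chromosome 1, 121312042 to 121318825), the activin beta B subunit, had an ESC Ring1b peak of 4000 bp and an ESC H3K27me3 peak of 3200 bp over its start. It was also the ligand gene with a Ring1b peak at the start in NSCs, 1200 bp wide from 121318201 to 121319400, within the span of the ESC peak. The nearest NSC H3K27me3 peak was 917176 bp from that start, and the nearest ESC Ezh2 peak 917576 bp. Inhbb thus had Ring1b in both cell types, the mark in ESCs, and no Ezh2 peak in ESCs. Ezh2 was not measured in NSCs.

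The Ring1b peak counted for Inha (chromosome 1, 75503652 to 75506941), the inhibin alpha subunit, was 2200 bp wide and ended 452 bp upstream of its start. It held 3 starts of Obsl1, a cytoskeletal adaptor gene whose starts lie 716 to 1436 bp from that of Inha, and did not hold the Inha start. Inha is thus counted by the 1 kb limit alone, and it dropped out when the start had to lie inside a peak. Inhba, Inhbc and Inhbe had no peak at a start, with the nearest at 547, 43.0 and 24.2 kb.

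Nodal, Lefty1 and Lefty2, the ligand of mesendoderm and left-right patterning and its feedback inhibitors, had no peak at a start in any list. With 3 genes the exact interval for a peak of any list was 0 to 70.8%, against 11.4% of the other genes. The nearest peaks were 97.7, 237 and 195 kb away. In the 1 kb around the Nodal start 78.4% of 32-base words occur once in mm9, the lowest share of the 33 genes, while the share was 100% at Lefty1 and Lefty2. How the authors treated reads with several alignments is not given for these lists, and its part in the missing Nodal peak was not tested.

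Of the TGF-beta genes, Tgfb1 (chromosome 7, 26472021 to 26490096), an immune regulator, had 2200 bp of ESC Ring1b beginning 380 bp downstream of the start and 2000 bp of H3K27me3 over it. Tgfb2 (chromosome 1, 188447065 to 188529871), which acts in heart and skeleton, had an ESC H3K27me3 peak of 1000 bp, the narrowest that the lists hold. Tgfb3, a palate fusion ligand, had none within 142 kb. Amh, the hormone that removes the Müllerian duct, had none within 28.6 kb. None of these 4 genes had an NSC peak at the start.

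For the limit of 1 kb, the ligand genes farthest from a counted peak were Bmp1 (334 bp from its H3K27me3 peak), Gdf7 (360 bp, NSC H3K27me3), Tgfb1 (380 bp) and Inha (452 bp), and those nearest beyond it were Gdf7 (1960 bp, Ezh2) and Gdf6 (2482 bp, NSC Ring1b). For the 18 ligand genes with no peak at a start, the nearest peak of any list was 16.4 to 668 kb away, with a median of 111 kb.

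The ESC Ring1b peaks at ligand genes had a median width of 3200 bp (n = 13, range 1600 to 5600 bp), against 2400 bp at the other 1909 genes. The ligand genes' range lay within that of the others, 1000 to 59000 bp. The quartiles were 2200 and 3800 bp at ligand genes and 1600 and 3800 bp at the others. The peaks of 5600 bp at Gdf6 and Gdf7 were wider than those at 84.2% of the other Ring1b genes, and that of Inhbb was wider than 75.6%. For ESC H3K27me3 the medians were 2300 bp (n = 12) and 1800 bp, and the 5400 bp peak at Gdf7 was wider than 93.1% of the others. The order was opposite for Ezh2, at 1800 bp (n = 8) and 2000 bp, and for Cbx2, with widths of 1200, 1600 and 3400 bp at Gdf6, Bmp7 and Gdf7 against a median of 3400 bp at the other 383 genes.

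From ESCs to NSCs, 12 of the 13 ligand genes with Ring1b no longer had a Ring1b peak (92.3%, 64.0 to 99.8%), against 79.6% of the other Ring1b genes, and Inhbb kept one. The H3K27me3 peak was lost at 8 of 12 (66.7%, 34.9 to 90.1%), against 70.9%, and kept at Bmp2, Bmp6, Gdf6 and Gdf7. Both background shares lay inside the ligand genes' intervals, and no difference in these shares can be read at these numbers. No ligand gene gained a peak at its start, of 20 without ESC Ring1b and 21 without ESC H3K27me3, where the shares gained over other genes were 0.922% and 0.842%. Here lost, kept and gained describe the 2 lists, each of 1 library, and the NSC lists were shorter. With the ESC lists cut by width to the sizes of the NSC lists, Ring1b was lost at 9 of 10 ligand genes, against 73.7% of the other genes, and H3K27me3 at 6 of 10, against 66.3%. The smallest widths kept were 2000 bp for Ring1b and 1200 bp for H3K27me3, and peaks tied at these widths were kept or dropped by chromosome order. That order dropped the Ring1b peaks of Bmp3 and Bmp8b and the H3K27me3 peak of Bmp1. Without Bmp1, in the uncut lists, Ring1b was lost at 11 of 12 and H3K27me3 at 7 of 11.

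The genes that kept H3K27me3 were none of those that kept Ring1b, so no ligand gene had both NSC peaks at its start, against 1.04% of the other genes. This rests on the 1 kb limit, since within 5 kb Gdf6 had both, through its NSC Ring1b peak 2482 bp from the start. Of the 15 ligand genes with any ESC peak, 5 had an NSC peak of either target (33.3%, 11.8 to 61.6%), against 30.8%. Of the 7 with ESC Ring1b, Ezh2 and H3K27me3, which are Bmp1, Bmp2, Bmp6, Bmp7, Bmp8b, Gdf6 and Gdf10, 3 kept H3K27me3 (42.9%, 9.90 to 81.6%), against 46.1%. Without Bmp1 these counts were 5 of 14 and 3 of 6. Both shares were near the background.

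The ESC H3K27me3 peaks at the 4 genes that kept the mark had a median width of 3100 bp (range 2400 to 5400 bp), and those at the 8 that lost it 1800 bp (range 1000 to 3600 bp). The groups overlapped, since Bmp7 lost a peak of 3600 bp, and over other genes the medians were 2800 and 1800 bp. The change in width from ESCs to NSCs was -1600 bp at Bmp2, +600 bp at Bmp6, +200 bp at Gdf6 and -600 bp at Gdf7. The Inhbb Ring1b peak changed by -2800 bp, where the other 390 genes that kept Ring1b had a median change of -1200 bp and 281 of them a narrower NSC peak. For H3K27me3 the median change over the other 440 genes was -200 bp.

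**Figure D4:**
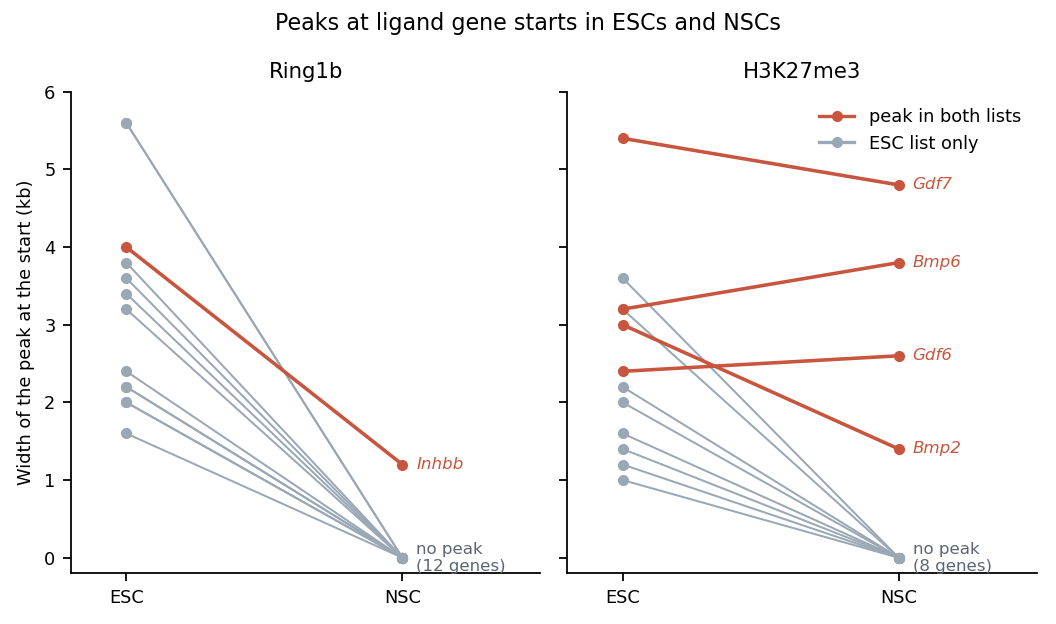
Width in kb of the Ring1b and H3K27me3 peaks at ligand gene starts in ESCs and NSCs, 1 line per gene, with 0 for no peak; equal widths overlie each other. Of the Ring1b lines only Inhbb ends above 0, and of the H3K27me3 lines Bmp2, Bmp6, Gdf6 and Gdf7 do.

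Most ligand genes with peaks had CpG-rich starts, and so did most other genes with peaks. CpG content was measured in the 1 kb around the start as the observed number of CpG over the number expected from the C and G content. A ratio of at least 0.6 was found at 11 of the 15 ligand genes with a peak of any list. Among other genes with such a peak it was found at 1896 of 2542. For ESC Ring1b the counts were 10 of 13 and 1475 of 1909. The median ratio was 0.780 at the 13 ligand genes with ESC Ring1b (range 0.251 to 1.08) and 0.328 at the 18 with no peak (range 0.144 to 0.828). Over the other genes the medians were 0.733 with Ring1b and 0.496 without a peak. The groups overlapped. With Ring1b, Inha (0.251, with its peak on Obsl1), Bmp4 (0.443) and Bmp3 (0.522) were low, and without a peak, Gdf11 (0.828), Tgfb3 (0.660) and Inhba (0.539) were above all 3 of them.

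Of the 13 ligand genes with a ratio of at least 0.6, 10 had ESC Ring1b (76.9%) and 11 had ESC H3K27me3 (84.6%), where the shares over the 10268 other genes of that class were 14.4% and 10.8%. NSC H3K27me3 was at 4 of the 13 (30.8%) against 4.63%. Between 0.4 and 0.6, 2 of 8 had ESC Ring1b, and below 0.4, 1 of 12 did, which was Inha. The shares over other genes in these classes were 9.46% and 1.51%. Without Bmp1 the CpG-rich class held 9 of 12 genes with ESC Ring1b, 10 with ESC H3K27me3 and 4 with NSC H3K27me3. CpG content moved with the peaks, genes were not matched on it within a class, and its part in the ligand shares was not tested.

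**Figure D5:**
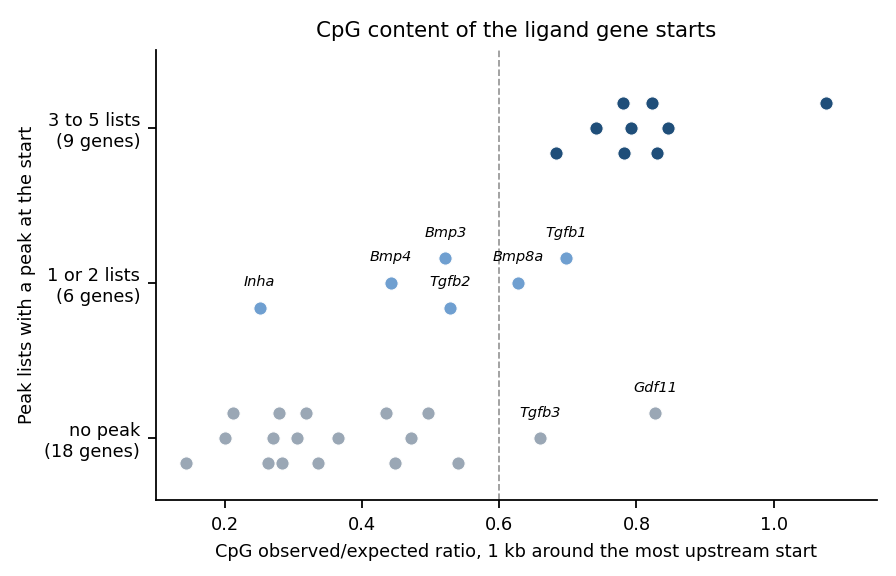
CpG ratio (observed over expected, 1 kb around the start) of each of the 33 ligand genes. The rows are genes with no peak, with peaks in 1 or 2 lists and with peaks in 3 to 5 lists. Genes with an ESC Ring1b peak are in the rows with peaks, where Bmp8a and Tgfb2 (1 list each) lack that peak. Genes with an ESC Ring1b peak have a median of 0.780 and those with no peak of any list 0.328, and the groups overlap, with Inha, Bmp4 and Bmp3 low among the former and Gdf11, Tgfb3 and Inhba high among the latter.

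The rest of the pathway was described with a list of 60 genes for receptors, Smads, antagonists, processing proteins, response genes and relatives. In ESCs Ring1b was at 18 of them (30%) and H3K27me3 at 15 (25%), against 8.56% and 6.78% of the genes outside the ligand list. Ezh2 was at 7 (11.7%) against 3.78%, and Cbx2 at 3 (5%) against 1.72%. In NSCs Ring1b was at 4 (6.67%) against 2.59%, and H3K27me3 at 5 (8.33%) against 2.76%. At least 1 list held 22 of the 60 (36.7%), against 11.4%. The 60 genes are part of that background. None of the 5 type II receptors had a peak in any list. Of the 7 type I receptors 3 did: Bmpr1b, Acvr1c and, in the NSC Ring1b list, Bmpr1a.

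The secreted antagonists and the transmembrane pseudoreceptor Bambi formed the largest of these groups, with 16 genes. ESC Ring1b was at 6 (37.5%), against 8.56% of the genes outside the ligand list. A peak of any list was at 7 (43.8%), against 11.4%. That share was not particular to this group. It was 42.9% at type I receptors, at co-receptors and at processing genes, 40% at response genes and 37.5% at Smad genes. It was lower at relatives (20%) and at type II receptors (0%). Nog, which encodes the BMP trap noggin, had ESC peaks of 5000 bp for Ring1b, 1200 bp for Cbx2, 1800 bp for Ezh2 and 2000 bp for H3K27me3 and an NSC H3K27me3 peak of 3400 bp. This is the same set of 5 lists as at Gdf6. Fst, for the activin-binding follistatin, had ESC peaks of 5200 bp for Ring1b, 3600 bp for Cbx2, 3600 bp for Ezh2 and 1200 bp for H3K27me3 and an NSC Ring1b peak of 1600 bp. Like Inhbb, for a subunit of the activins it binds, Fst kept Ring1b and not H3K27me3. Grem1, for the BMP antagonist gremlin, had the same 4 lists as Bmp2 and Bmp6, and Nbl1, for a related antagonist, had the ESC Ring1b, Ezh2 and H3K27me3 lists.

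Of the 8 Smad genes, the inhibitory Smad6 was in 5 lists, with 3400 bp of ESC Ring1b and 1400 bp of ESC Ezh2. It had both NSC peaks at its start (2000 bp of Ring1b and 2400 bp of H3K27me3), which no ligand gene had within 1 kb. The co-receptor gene Rgma had 2600 bp of ESC Ring1b, 1000 bp of Cbx2 and 3800 bp of H3K27me3. Id4, a helix-loop-helix inhibitor that responds to BMP signals, had 2200 bp of ESC Ring1b, 2000 bp of ESC H3K27me3 and 3000 bp of NSC H3K27me3. Gdnf, a neurotrophic relative outside the ligand list, had 7600 bp of ESC Ring1b, wider than any of the 33, and 2400 bp of NSC H3K27me3. Over the 60 genes, Ring1b was kept at 2 and lost at 16 of 18, and gained at 2 others, Bmpr1a and Smad7. H3K27me3 was kept at 5 and lost at 10 of 15, and gained at 0. The shares lost over genes outside the ligand list were the 79.6% and 70.9% given above. The shares gained over those without the ESC peak were 0.922% and 0.842%.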

How the data were processed

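ChIP-seq was analysed from 6 lists of peaks, 1 per library. To make them, the authors mapped paired-end tags to mm9, compared tag counts in overlapping 1 kb windows with an input by a negative binomial distribution, and joined neighbouring enriched windows. Their methods name Bowtie and the submitters' processing notes name BWA. The deposited values are other than counts, namely peak starts and ends in bp with no score. The 4 input libraries and the depth of the libraries were not analysed here. Groups followed the sample labels.

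Start sites, exons and sequence came from mm9 and its GENCODE annotation. Distances, widths and CpG content were computed with numpy 2.4.6 in Python 3.11.15, intervals with scipy 1.17.1 and figures with matplotlib 3.10.9, and the counting was tested on simulated data. Where several peaks lay at a gene, the widest was taken. Peak positions were read as BED intervals and are given 1-based.

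Positions and widths were printed for members with peaks in at least 3 lists or a changed peak. Pathway genes were named from 3 lists upward, and some further genes were added once values were known. The members and lists were chosen with earlier results of these data known. The Gdf1 promoter is not shown because it overlaps an exon of Lass1.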

Additional observations from a re-analysis of the deposited data

How the results depend on the processing

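Of 143 values recomputed under other settings, 120 stayed within 1.5 times the value in the report for counts, or within the spread for widths, and 23 did not. None moved past these limits among the 23 values recomputed with peaks within 3 kb merged, the 19 with the most upstream start alone, the 10 ligand gene counts with lists cut to equal size by width (where ESC Ring1b and ESC H3K27me3 were each at 10 ligand genes), the 4 median widths with the nearest in place of the widest peak, and the 13 ligand gene counts without Bmp1, an alternative chosen after seeing the data. With peaks of at least 2 kb, the ligand genes with Cbx2 were 1, with Ezh2 4, with NSC Ring1b 0, with all 4 ESC targets 0, with Ring1b kept 0 and with H3K27me3 lost 5, and the median NSC Ring1b width had no value. The other genes' shares were then 5.67% for ESC Ring1b, 2.04% for Ezh2, 3.25% for ESC H3K27me3, 1.14% for NSC Ring1b and 1.57% for NSC H3K27me3. When the start had to lie inside a peak, NSC H3K27me3 was at 2 ligand genes, all 4 ESC targets at 1, and H3K27me3 was kept at 2. Within 5 kb, NSC Ring1b was at 2 ligand genes and kept at 2, with a median width of 1100 bp, since the Gdf6 peak was then counted. Over CpG-rich starts alone the other genes' shares were 14.4% for ESC Ring1b, 2.87% for Cbx2, 6.4% for Ezh2, 10.8% for ESC H3K27me3, 4.66% for NSC Ring1b and 4.63% for NSC H3K27me3. No paired analysis was possible because each target had 1 library per cell type and no test was made. For the same reason no replicate could be left out.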
